A study of Homo sapiens with 47 samples.

Results

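The secreted protein reelin (RELN), its receptors VLDLR and LRP8 and the adaptor DAB1 were followed in RNA-seq of HEK293T cells, a human embryonic kidney line. These 4 genes, of 58395 counted, were chosen by symbol on the basis of measured values of the same comparison, because RELN was near absent in wild-type cells and present in cells with mutant EAF1. All 4 were among the 28025 genes that passed edgeR's filter on low counts, RELN through its counts in the mutant group. Since the choice rests on this contrast, their values are given as a description, without a test.

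The study compared wild-type HEK293T cells with EAF1-mutant HEK293T cells, 3 libraries of ribosomal RNA-depleted RNA each. EAF1 is a subunit of an elongation complex containing ELL, and in the mutant line the residues of EAF1 that contact the Mediator subunit MED26 had been changed to alanines on both alleles by CRISPR knock-in. The methods name 1 such line, picked from screened clones, so what the mutation does and what is peculiar to that line cannot be told apart. The study says in general that its experiments were repeated as biological replicates, and RNA-seq is not among the exceptions it lists. The labels of these libraries do not say whether each came from its own culture, so p-values measure only the spread between these samples, and how much of it is technical is not known.

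Total counts were 59137210, 52541541 and 55637032 in wild type, and 57198018, 53369621 and 66611451 in the mutant line. Levels are given as CPM, a count scaled to the library size after adjustment by edgeR's TMM method. The EAF1 gene itself had 57.5, 58.4 and 56.5 CPM in the wild-type libraries and 19.7, 17.9 and 18.8 CPM in the mutant ones. Its RNA was thus lower in all 3 mutant libraries, with a log2 fold change of -1.61 (standard error 0.05, edgeR adjusted p = 2.48e-18). A point mutation leaves this RNA countable, so its level does not check the labels. The fall was not particular to EAF1, since EAF1-AS1, its antisense gene, went from 25.4 to 8.70 CPM (log2 fold change -1.54). Whether the fall belongs to EAF1 or to its region was not tested. By western blot, the paper found little change in the amount of EAF1 protein.

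Reelin is a large extracellular glycoprotein, best known from the developing cortex, where Cajal-Retzius neurons and later interneurons secrete it and migrating neurons respond to it. It binds VLDLR and LRP8 (also called ApoER2), members of the lipoprotein receptor family, and their clustering leads Src-family kinases to phosphorylate DAB1 on the receptor tails. Phosphorylated DAB1 recruits adaptors of the CRK and NCK families and PI3-kinase, and is then degraded by a CUL5 ubiquitin ligase.

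RELN (ENSG00000189056), the ligand gene, spans chr7:103471381-103989658 on the minus strand of GRCh38. Its promoter is shown because this gene separated the groups most among those chosen. The run below is the 250 bases before the start site, chr7:103989659-103989908, minus strand, from RefSeq (GRCh38.p14), with each CG dinucleotide in capitals.
RELN: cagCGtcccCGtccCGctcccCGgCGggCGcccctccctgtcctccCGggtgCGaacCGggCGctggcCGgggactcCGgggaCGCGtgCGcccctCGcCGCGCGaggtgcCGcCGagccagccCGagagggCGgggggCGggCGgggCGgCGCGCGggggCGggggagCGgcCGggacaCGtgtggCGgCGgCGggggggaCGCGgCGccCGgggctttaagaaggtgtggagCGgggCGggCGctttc
The printed run holds 43 CG dinucleotides. Counted over 300 bases, which add the 50 bases after the start, RELN had 52, and 0.780% of the 35116 promoters of that length in the RefSeq table had as many or more. The median promoter had 14, with quartiles of 4 and 28. The 300 bases were 83.3% G or C and held 6 matches on either strand to GGGCGG, the GC box letters, each of which contains a CG. At least 1 such match was found in 45.0% of all promoters. TATAAA was not matched in the RELN window on either strand and was matched in 11.5% of all promoters.

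The receptors' promoters were also rich in CG. VLDLR had 49 CG dinucleotides in its 300 bases and LRP8 had 41, numbers reached by 1.60% and 6.70% of all promoters. DAB1 had 6 listed start sites, whose windows held from 13 to 48. These windows describe base composition and carry no measurement of methylation or of protein binding.

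RELN had 1, 0 and 2 counts in the wild-type libraries and 239, 269 and 337 in the EAF1-mutant libraries. All wild-type libraries were at trace level and all mutant libraries stood far above them. In CPM, the wild-type libraries were at 0.0177, 0 and 0.0374, and the mutant libraries at 4.01, 4.84 and 4.88. The groups did not overlap, and within the mutant group the lowest library, replicate 1, still had 4.01 CPM. Group means were 0.0184 ± 0.0187 CPM (SD, n = 3) in wild type and 4.58 ± 0.489 CPM (SD, n = 3) in the mutant.

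The 3 wild-type counts in all allow a level between 0.00385 and 0.0546 CPM, and the 845 mutant counts a level between 4.28 and 4.91 CPM (exact Poisson 95% intervals, counting error only). Relative to library size, RELN was 246 times as abundant in the mutant, with an exact conditional binomial 95% interval from 83.8 to 1193 that covers counting error only. The fitted log2 fold change was 7.78 (standard error 0.29), the value of rank 4 from the top among the 28025 tested genes. This fitted value depends on how so few wild-type counts are treated. It was 6.43 with a prior count of 2 in place of the default, 7.28 without wild-type replicate 2, the library with no RELN count, and 8.63 without wild-type replicate 3, the library with 2. In these bulk samples, fewer cells with RELN RNA and less RELN RNA per cell cannot be told apart.

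**Figure D1:**
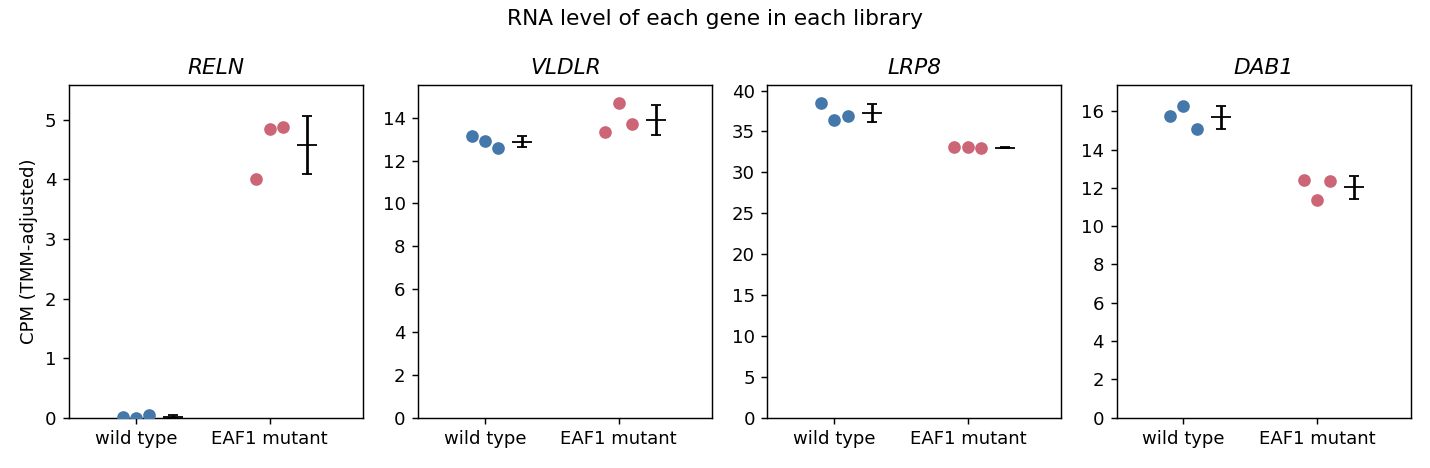
Level of RELN, VLDLR, LRP8 and DAB1 in each library, in TMM-adjusted CPM from 0. Points are libraries (blue, wild type; red, EAF1 mutant) and black marks show the mean with SD of 3 libraries. RELN lay near 0 in wild type and between 4.01 and 4.88 CPM in the mutant, while the other genes were well above 0 in both groups.

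The RELN gene body overlaps the lncRNA SLC26A5-AS1 on the opposite strand and the small RNA pseudogene RN7SKP86 on the same strand, but shares no exon base with either. SLC26A5-AS1 had 0, 0 and 0 counts in wild type and 1, 3 and 1 in the mutant.

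VLDLR (ENSG00000147852; chr9:2621182-2660056, plus strand), the very low density lipoprotein receptor, is a receptor for both reelin and lipoproteins. Its wild-type libraries had 13.1, 12.9 and 12.6 CPM and its mutant libraries 13.3, 14.7 and 13.7 CPM. Each mutant library was above each wild-type one, but by little, since the highest wild-type and the lowest mutant value were close. The means were 12.9 ± 0.264 and 13.9 ± 0.709 CPM (SD, n = 3), a log2 fold change of 0.11 (standard error 0.06, 95% interval -0.01 to 0.23). Of its annotated exon bases, 260 are shared with VLDLR-AS1 on the other strand, an lncRNA with 1.87 CPM in wild type against 2.35 CPM in the mutant. Another lncRNA on that strand, ENSG00000286670, shares 1100 exon bases with VLDLR and was not among the genes counted. No source used here says whether the counting used strand, so reads from these overlapping genes cannot be told apart.

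LRP8 (ENSG00000157193; chr1:53242364-53328469, minus strand) encodes the receptor of reelin that also couples to the NMDA receptor in neurons. It had 38.5, 36.4 and 36.9 CPM in the wild-type libraries and 33.1, 33.1 and 32.9 CPM in the mutant libraries. All mutant libraries were below all wild-type libraries. Means of 37.3 ± 1.06 and 33.0 ± 0.0824 CPM (SD, n = 3) gave a log2 fold change of -0.17 (standard error 0.04, 95% interval -0.26 to -0.09). LRP8 shares exon bases with antisense lncRNAs, 1046 of them with MAGOH-DT, itself at 1.48 CPM in wild type against 1.74 CPM in the mutant.

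DAB1 (ENSG00000173406; chr1:56994778-58546734, minus strand) encodes the cytoplasmic adaptor that binds the tails of both receptors. Wild-type libraries had 15.8, 16.3 and 15.1 CPM and mutant libraries 12.4, 11.4 and 12.4 CPM. The groups did not overlap, and the mutant libraries were the lower ones. Means of 15.7 ± 0.605 and 12.0 ± 0.591 CPM (SD, n = 3) gave a log2 fold change of -0.38 (standard error 0.06, 95% interval -0.50 to -0.26). OMA1, a mitochondrial protease gene on the same strand, shares 257 exon bases with DAB1. Its mean went from 53.0 to 41.4 CPM, a log2 fold change of -0.36, and reads in the shared bases cannot be assigned to either gene with the settings known.

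Among these genes, RELN alone passed the size limit of 0.5 on the log2 scale that the study used. The groups did not overlap for any of the 4, as they did not for 57.3% of all 28025 tested genes. Nothing is read from that count, because the genes were chosen on this contrast. Over all tested genes the median change was 0.01 (log2). When libraries were scaled by their totals, without TMM, that median was 0.13 and the changes of VLDLR, LRP8 and DAB1 were 0.22, -0.059 and -0.27. Relative to the median of all genes they were 0.10, -0.19 and -0.39 under either scaling.

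**Figure D2:**
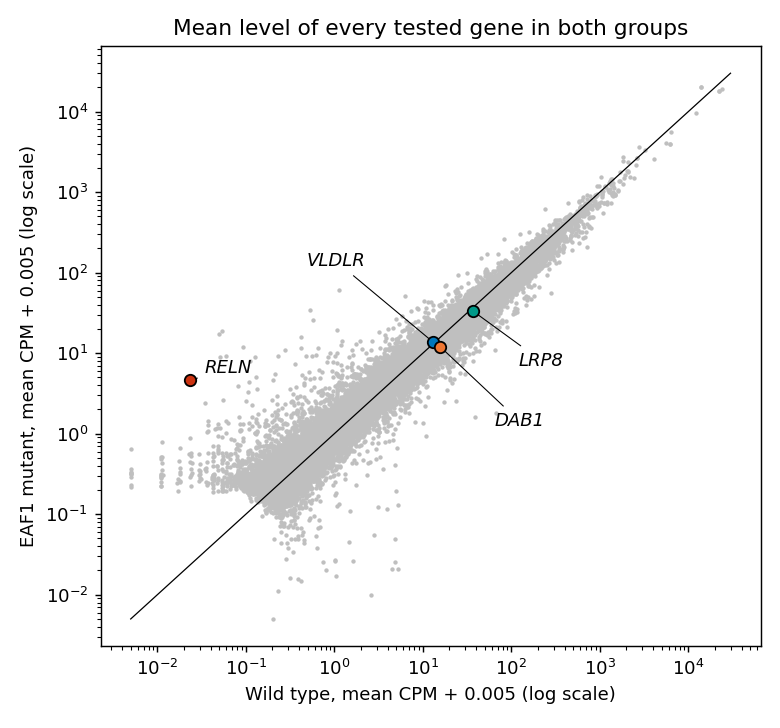
Mean level of every tested gene in wild type (horizontal) and EAF1 mutant (vertical), in CPM plus 0.005 on log axes, with the line of equal level. Each gray point is a gene. RELN stands far above the line, at 0.0184 CPM in wild type and 4.58 CPM in the mutant, whereas VLDLR, LRP8 and DAB1 lie close to it.

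Levels of different genes were compared per kb of annotated exons (RPKM). In wild-type cells DAB1 was at 2.08 ± 0.0802 RPKM, LRP8 at 1.90 ± 0.0541, VLDLR at 0.781 ± 0.0160 and RELN at 0.000518 ± 0.000528 (SD, n = 3). In the mutant LRP8 was at 1.68 ± 0.00419 RPKM, DAB1 at 1.59 ± 0.0783, VLDLR at 0.843 ± 0.0430 and RELN at 0.129 ± 0.0138. LRP8 and DAB1, next to each other in this order, were separated in wild type by little more than their spread, and their order was the opposite in the mutant. RELN was the lowest in both groups. VLDLR was 6.52 times as abundant per kb as RELN in the mutant, and 3.86 times with the length of the MANE Select transcript, an alternative chosen after seeing the data.

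The order of LRP8 and DAB1 depended on which length was used. With MANE Select lengths LRP8 led in both groups, at 4.84 and 4.29 RPKM, and DAB1 followed at 2.96 and 2.27 RPKM. VLDLR came next at 1.40 and 1.51 RPKM, and RELN was lowest at 0.00157 and 0.391 RPKM. Of the RNA of both receptors per kb of exons, VLDLR made up 28.9%, 29.7% and 28.9% in the wild-type libraries and 32.4%, 34.6% and 33.2% in the mutant libraries. Its share was higher in each mutant library. With MANE Select lengths the means were 22.4% and 26.0%.

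**Figure D3:**
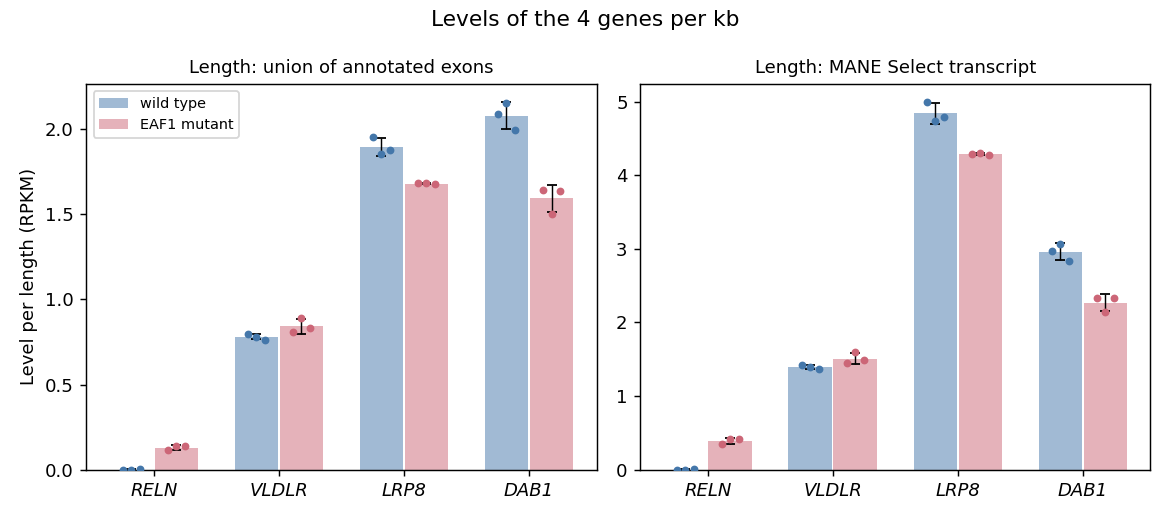
Level per kb (RPKM) of the 4 genes, with the union of annotated exons (left) or the MANE Select transcript (right) as length. Bars are means of 3 libraries, whiskers are SD and points are libraries (blue, wild type; red, EAF1 mutant). RELN was lowest in both panels, and the order of LRP8 and DAB1 in wild type differed between panels.

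The other genes of the pathway formed a list of 99, of which 94 were tested. A gene was called where edgeR's adjusted p was under 0.01 and its log2 fold change exceeded 0.5 in either direction. By this rule 8 of the 94 were higher in the mutant and 9 were lower, so 18.1% were called, against 20.3% of all tested genes (11.0% higher, 9.36% lower). Their median log2 fold change was -0.01, against 0.01 over all tested genes. At an adjusted p under 0.05 with no limit on size, 58 of the 94 (61.7%) passed, against 51.5% of all tested genes, and the median size of change was 0.17 in the list and 0.28 over all genes. The remaining genes of the list, MEP1A, CDK5R2, DCX and TBR1 among them, were too low to be tested. Calls in the smaller groups below stand against the same 11.0% higher and 9.36% lower, and no group was tested for a difference from them.

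Of 6 tested genes for proteases that cleave reelin, 2 were called higher and 1 lower. The largest change of the list was that of ADAMTS5. This gene, which encodes a secreted metalloprotease also active on aggrecan, had 0.159, 0.139 and 0.0934 CPM in the wild-type libraries and 3.75, 3.58 and 3.55 CPM in the mutant ones. It was low in all wild-type libraries and over 3 CPM in all mutant libraries, a log2 fold change of 4.77 (standard error 0.20). Like RELN, ADAMTS5 passed the filter on low counts through its counts in the mutant group. Its call could thus hardly have gone the other way, and it is described without a p-value. ADAMTS2, a procollagen N-proteinase that cuts reelin in its N-terminal part, rose from 1.97 ± 0.212 to 6.33 ± 0.479 CPM (SD, n = 3; log2 fold change 1.68, edgeR adjusted p = 4.9e-12). ADAMTS4 was lower, at 0.771 and 0.427 CPM, a call that was not made with DESeq2 (log2 fold change -0.85, adjusted p = 0.0345). ADAMTS3, the protease best known for cleaving reelin in the brain, had 19.2 and 13.7 CPM, a log2 fold change of -0.49 that fell short of the size limit. PLAT and MEP1B were not called.

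Other ligands of the receptors were called higher in 3 of 7 tested genes and lower in none. SELENOP, the selenium carrier that LRP8 takes up, had 6.14, 5.84 and 5.51 CPM in the wild-type libraries and 29.1, 28.8 and 28.9 CPM in the mutant libraries. The mutant libraries were all far higher (log2 fold change 2.31, standard error 0.06, edgeR adjusted p = 3.22e-19). APOE, the apolipoprotein bound by both receptors, rose from 1.58 ± 0.0517 to 3.54 ± 0.406 CPM (log2 fold change 1.17, edgeR adjusted p = 3.89e-08). THBS1, an extracellular matrix glycoprotein, rose from 1.17 ± 0.0655 to 1.97 ± 0.288 CPM (log2 fold change 0.75, edgeR adjusted p = 1.97e-04). CLU, SPON1, TFPI and the receptor chaperone gene LRPAP1 were not called, with log2 fold changes of 0.27, -0.17, 0.32 and 0.13. In this group the median was 0.32.

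Of 12 other genes of the lipoprotein receptor family, all tested, LRP4 was higher and LRP11 and LRP1 were lower. LRP4, the agrin receptor of the neuromuscular junction, went from 25.0 ± 0.674 to 36.2 ± 1.5 CPM (log2 fold change 0.53, edgeR adjusted p = 9.9e-10). LRP11 went from 52.9 ± 1.66 to 30.7 ± 0.773 CPM (log2 fold change -0.78, edgeR adjusted p = 2.95e-13). LRP1, a large endocytic receptor, went from 20.7 ± 0.578 to 14.4 ± 1.18 CPM (log2 fold change -0.52, edgeR adjusted p = 8.42e-08). LRP6, a coreceptor of Wnt signaling, had 100.5 and 106.1 CPM and was not called.

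Among 10 proteins that bind the receptor tails or move the receptors, 2 were higher and 2 lower. DAB2, the endocytic adaptor related to DAB1, had 3.80, 4.49 and 3.79 CPM in wild type and 7.64, 8.45 and 8.62 CPM in the mutant. It was higher in each mutant library (log2 fold change 1.03, standard error 0.09, edgeR adjusted p = 7.95e-10), while DAB1 was lower in each. DLG4, the synaptic scaffold also called PSD-95, rose from 4.60 ± 0.285 to 7.17 ± 0.194 CPM (log2 fold change 0.64, edgeR adjusted p = 6.01e-07). NUMBL, an endocytic adaptor of the Numb family, fell from 15.9 ± 0.312 to 7.72 ± 0.606 CPM (log2 fold change -1.04, edgeR adjusted p = 3.32e-12). The JNK scaffold MAPK8IP1 fell from 14.0 ± 1.27 to 9.56 ± 0.188 CPM (log2 fold change -0.56, edgeR adjusted p = 2.28e-07). SNX17, which recycles the receptors, and MYLIP, the ubiquitin ligase that degrades them, had log2 fold changes of 0.16 and 0.05.

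Ephrin-B proteins and their receptors, reported partners of the reelin receptors, were lower in 2 of 6 tested genes. EFNB1, a ligand of EphB receptors, fell from 26.7 ± 0.985 to 14.9 ± 0.852 CPM (log2 fold change -0.84, edgeR adjusted p = 4.21e-12). EPHB2, a receptor for these ligands, fell from 17.1 ± 1.35 to 11.5 ± 0.306 CPM (log2 fold change -0.57, edgeR adjusted p = 4.8e-08). Of 6 tested kinase genes acting on DAB1, CDK5, a serine/threonine kinase of neurons, fell from 30.3 ± 1.63 to 19.5 ± 0.631 CPM (log2 fold change -0.64, edgeR adjusted p = 2.08e-10). The Src-family kinases FYN, SRC, YES1 and LYN were not called, with log2 fold changes of -0.10, 0.09, 0.07 and -0.26.

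Downstream of DAB1, the median over the 28 tested effector genes was -0.03. PAFAH1B3, a subunit of the acetylhydrolase that contains LIS1, fell just short of the size limit at -0.50 with edgeR and was called lower with DESeq2 (-0.51, adjusted p = 2.58e-12). MAP1B, a microtubule-associated protein, was at -0.48 and was called by neither tool. None of the 8 genes that turn DAB1 over was called, CUL5 among them at 93.5 and 91.0 CPM, and their changes ranged from -0.14 to 0.09. None of the 11 tested genes known to act on the RELN promoter was called. Among these the DNA methyltransferases DNMT1, DNMT3A and DNMT3B had log2 fold changes of -0.06, 0.03 and 0.02. The demethylases TET1, TET2 and TET3 had -0.24, -0.07 and 0.28.

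Several of these calls lay near the limit. With library totals alone, 4 genes of the list were called lower, and ADAMTS4, LRP1, MAPK8IP1 and EPHB2 no longer were, at log2 fold changes of -0.72, -0.40, -0.44 and -0.45. Over all genes that scaling gave 4169 higher and 1840 lower, against 3071 and 2624 with TMM. Leaving out a library ended the calls of LRP4 (0.50 without wild-type replicate 3) and LRP1 (-0.45 without mutant replicate 1). That of ADAMTS4 ended without wild-type replicate 1 (-0.82), wild-type replicate 3 (-0.82), mutant replicate 1 (-0.64) or mutant replicate 2 (-0.81). Other genes were called lower only when a library was left out or with DESeq2. These included PAFAH1B3 (-0.56 without wild-type replicate 2, -0.51 without mutant replicate 1 or 2), MAP1B (-0.56 without wild-type replicate 1, -0.50 without mutant replicate 2) and ADAMTS3 (-0.50 without wild-type replicate 1, -0.52 without wild-type replicate 3). EPHB1 was called higher with library totals alone (0.51), and CDK5R2 without the filter on low counts (3.56).

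**Figure D4:**
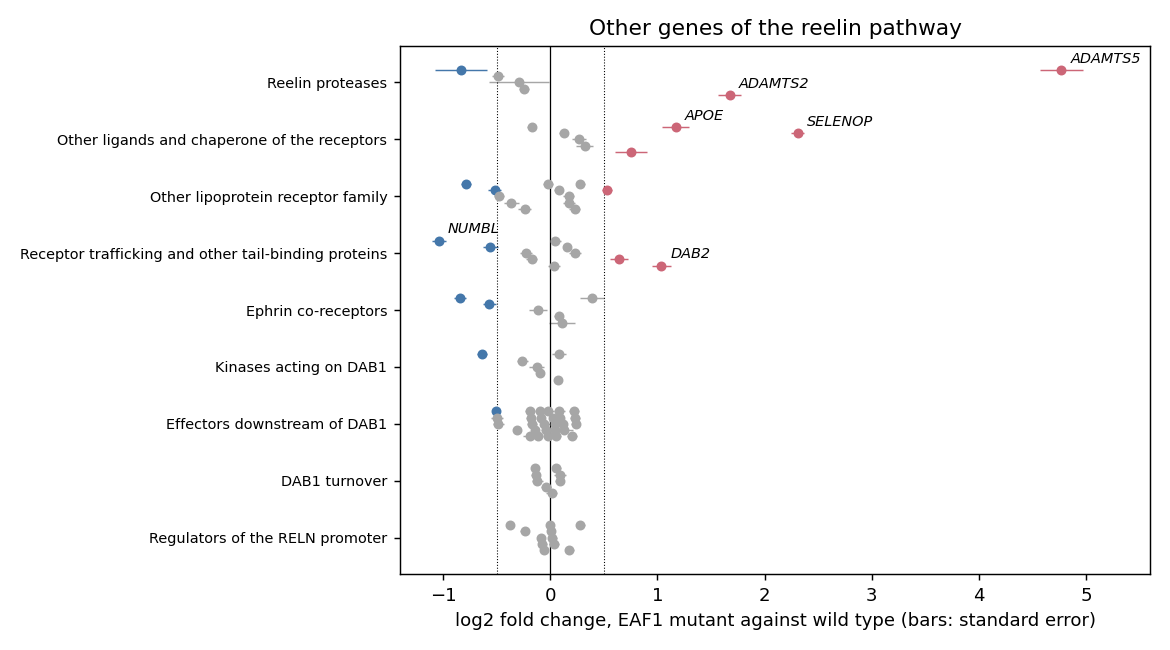
Log2 fold change, EAF1 mutant against wild type, of the 94 tested pathway genes by role, with standard errors as bars. Red and blue points were called higher and lower, gray points were not called, and dotted lines mark 0.5 in either direction. ADAMTS5, at 4.77, and SELENOP, at 2.31, stand farthest to the right, while most effectors and all genes for DAB1 turnover lie between the dotted lines.

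The genes around RELN were examined to see whether RELN changed with its region. Of 51 annotated genes within 1 Mb of RELN, 37 were tested, 6 were higher and 1 was lower, and their median log2 fold change was 0.21. Of all tested genes, 11.0% were higher and 9.36% lower, with a median of 0.01. The 25 tested protein-coding genes ranged from -0.55 to 0.61. The nearest tested coding gene before the start of RELN, ORC5, an origin recognition subunit, had 40.2 and 33.2 CPM (log2 fold change -0.28). Beyond the other end of RELN, SLC26A5, the cochlear motor protein prestin, had 0.278 and 0.345 CPM, and PSMC2, a proteasome subunit, had 102.8 and 111.0 CPM. Neither was called.

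Coding genes called within this distance were RASA4B (0.61), FBXL13 (0.60), RASA4 (0.54) and, in the lower direction, LRRC17 (-0.55). RASA4 and RASA4B are near-identical copies, as are the neighboring POLR2J, SPDYE2 and UPK3BL genes, so their counts are uncertain. These copies start more than 1 Mb from the start of RELN, as does the pseudogene RASA4DP, also called higher (0.63). Being many, they weigh in the median and the calls given for the region. The pseudogene DPY19L2P2 rose from 0.427 to 1.43 CPM (log2 fold change 1.74, edgeR adjusted p = 1.58e-07). Around VLDLR 8 genes were tested with 0 higher and 1 lower, around LRP8 49 with 2 higher and 0 lower, and around DAB1 13 with none called in either direction. The shares over all genes were those given above.

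**Figure D5:**
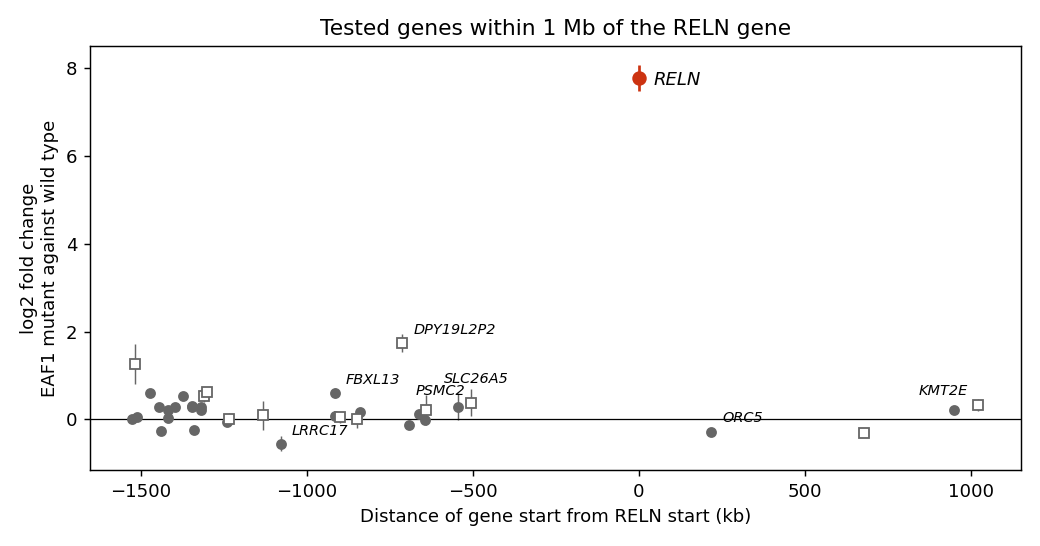
Log2 fold change, EAF1 mutant against wild type, of the 37 tested genes within 1 Mb of the RELN gene, against the distance in kb of their start from that of RELN. Filled circles are protein-coding genes, open squares are other genes, the red circle is RELN, and bars are standard errors. Coding neighbors lie between -0.55 and 0.61, far below RELN at 7.78.

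Few genes had the pattern for which RELN was chosen. A wild-type mean under 0.05 CPM with a mutant mean of at least 1 CPM was found for 13 genes, 9 of them protein coding, and the reverse for 10 genes, all protein coding. Beside RELN, the 13 included the lncRNA LINC01836 (0.0482 and 19.0 CPM), HLA-DQB2, an MHC class II chain gene (0.0451 and 17.4 CPM), and PRLR, the prolactin receptor (0.0423 and 1.16 CPM). At limits of 0.1 and 0.5 CPM, the numbers were 69 and 21. The 10 of the 13 with a listed promoter had a median of 17 CG dinucleotides, taking the most CG-rich window of each gene, where the median over all genes was 16.

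The genes closest to RELN across the 6 libraries, by Euclidean distance of log2 CPM with a prior count of 2, were SP140L (1.97), KCNQ3 (2.05), PGR (2.17), CHODL (2.51) and TRIM58 (2.72). SP140L, a nuclear body protein of the SP100 family, had 0.0707, 0 and 0.0187 CPM in wild type and 2.50, 2.46 and 2.19 CPM in the mutant. KCNQ3, a neuronal potassium channel subunit, had means of 0.0503 and 2.64 CPM. PGR, the progesterone receptor, had 0.0554 and 9.11 CPM. All had over 2 CPM in each mutant library and far less in each wild-type library, a pattern that follows from choosing them by nearness to RELN. They lie on chromosomes 2, 8, 11, 21 and 1.

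Markers of cells that make reelin in tissue were measured beside it, as lists without RELN. The calls in these and the other cell type lists stand against 11.0% higher and 9.36% lower over all tested genes, and such short lists were not tested for a difference from those shares. Of 8 Cajal-Retzius neuron markers, 5 were tested and 3 were higher (TP73, EBF2 and NHLH2). Summed, this list had 47.4, 48.8 and 49.6 CPM in the wild-type libraries and 72.6, 71.0 and 73.7 CPM in the mutant libraries, and its most abundant gene was EBF3, at 24.0 and 34.0 CPM, which fell just short of the size limit at 0.50. The defining markers LHX5 and CALB2 were under 0.1 CPM in both groups, and TBR1 was at 0.170 and 0.159 CPM. Of 8 GABAergic interneuron markers, 6 were tested and 4 were higher (GAD1, NPY, DLX1 and DLX2). Their sum was 46.1, 42.9 and 46.7 CPM in wild type and 66.6, 71.5 and 69.0 CPM in the mutant, led by DLX1 at 16.4 and 25.1 CPM, while SST had 0 counts in all libraries. NPY, at 0.0499 CPM in wild type, passed the filter on low counts through its counts in the mutant group. Tested members of these lists below 0 were LHX1 (-0.17), LHX6 (-0.16) and DLX5 (-0.13), and none of these was called. Both sums were higher in each mutant library, as RELN was, and their part in the RELN result was not tested.

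In the endothelial, intestinal epithelial, and fibroblast and stellate cell lists the sums moved less, although single genes in them changed by up to 2.57. Of 6 endothelial markers, 3 were tested and 1 was higher, and they summed to 47.9 and 53.4 CPM, led by FLT4, with CDH5 and LYVE1 under 0.1 CPM in both groups. Of 7 intestinal epithelial markers, 4 were tested and 2 were higher, EPCAM (log2 fold change 2.57) and CDH1 (1.27), with sums of 46.9 and 51.1 CPM led by VIL1. Of 6 fibroblast and stellate cell markers, 2 were tested, COL1A1 higher (0.54) and COL3A1 lower (-2.18), with sums of 5.16 and 4.82 CPM led by COL1A1. For the line itself, 10 of 11 HEK293T markers were tested, with a sum of 677.4, 685.3 and 704.9 CPM in wild type and 513.6, 507.9 and 518.6 CPM in the mutant. The most abundant, VIM, an intermediate filament of mesenchymal cells, had 380.5 and 199.4 CPM. VIM, NES and NEFM were called lower and KRT8 and KRT18 higher. The renal transcription factor gene PAX2 was at 0.679 and 0.871 CPM, and PAX8 was too low to be tested.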

How the data were processed

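RNA-seq of ribosomal RNA-depleted libraries was used, 3 wild-type and 3 EAF1-mutant, grouped by their labels. The authors trimmed paired-end reads, aligned them by HISAT2 on GRCh38 (the submitters' processing notes give its version as 2.3.4.1), and used Rsubread to count them per Ensembl gene, and they deposited these counts without normalization. Of 58395 identifiers, 57754 matched GENCODE release 44, from which symbols and positions were taken; the other 641 held 2.81% of the counts.

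Libraries were scaled by TMM and low genes filtered by filterByExpr (edgeR 4.0.16, R 4.3.3). The 28025 genes left were tested by edgeR's quasi-likelihood method, and p-values were adjusted over all of them by Benjamini-Hochberg. The biological coefficient of variation was 4.11%, and library totals ran from 52541541 to 66611451. Library pairs of a group differed by more than sampling noise. The tests were checked on simulated counts. Alternatives were DESeq2 1.42.0 and other scalings, filters, limits, a replicate block and each library left out. Figures were drawn with matplotlib 3.10.9.

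Named genes were the 4 chosen genes, pathway genes past the thresholds with a mean of at least 1 CPM, tested coding genes within 1 Mb of RELN, the 5 genes nearest to RELN across libraries and the most abundant marker of each list; other names were chosen after their values were seen. Some genes that this rule takes are not reported here. The genes and lists were chosen with earlier results of these data known. PRO-seq, ChIP-seq, 4C-seq and biotinylation data were not analysed here.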

Additional observations from a re-analysis of the deposited data

How the results depend on the processing

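Directions of all 4 log2 fold changes held under each alternative run. Leaving out each library gave 7.28 to 8.63 for RELN, 0.07 to 0.14 for VLDLR, -0.20 to -0.16 for LRP8 and -0.43 to -0.34 for DAB1, with 7 to 8 pathway genes called higher and 8 to 10 lower. A prior count of 2 gave 6.43 for RELN, by construction. With library totals without TMM, VLDLR was at 0.22, LRP8 at -0.059 and DAB1 at -0.27, and 4 pathway genes were called lower, as the median of all genes moved to 0.13. At an adjusted p under 0.05 with any fold change, edgeR called 25 pathway genes higher and 33 lower. Under the wider limits of 0.1 and 0.5 CPM, 69 genes went from near absent to present. Levels per length with MANE Select transcripts, an alternative chosen after seeing the data, are given beside the others.

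Same-numbered libraries did not deviate together (correlations of -0.01, -0.02 and 0.01 across genes). The labels do not say whether they shared a culture or a preparation, and these correlations cannot decide it. With the replicate number as a block, RELN was at 7.77, VLDLR at 0.11, LRP8 at -0.17 and DAB1 at -0.38, and 8 pathway genes were called higher and 9 lower; over all genes 3055 were higher and 2631 lower. DESeq2 also gave 8 and 9, sharing 16 of 17 genes with edgeR. Depth limits RELN in wild type, where 3 counts set its level.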
